A study of Arabidopsis thaliana with 6 samples.

Results

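The genes described here encode the proteins that recognise the ends of plant introns and that carry the assembly of the spliceosome forward. They are the U2AF65A, U2AF65B, U2AF35A and U2AF35B subunits of the U2 auxiliary factor, the U2 snRNP protein U2B'', the U1 snRNP proteins U1A and U1-70K, and the DEAD-box RNA helicases UAP56a and UAP56b. They are 9 genes of the 33602 in the gene table, taken by locus. They were picked with light-minus-dark results of these same libraries already known, so their gene levels and their exon, intron and junction usage are given as a description, with no test of their own.

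Arabidopsis thaliana Col seedlings grew for 9 days in cycles of 12 h light and 12 h dark at 22 °C under 50 µmol m-2 s-1. In the last night, 1 group received white light for 2 h, beginning at ZT18 (18 h after the lights came on). The other group stayed in the dark, and both were harvested at ZT20. Each group had 3 RNA-seq libraries, named A, B and C here, from a pool of tissues of seedlings of 1 genotype that carried no transgene or mutation named in the labels.

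Splicing begins when the U1 snRNP binds the start of an intron and U2AF binds its end. The large U2AF subunit holds the polypyrimidine tract, the small subunit reads the AG at the splice site, and together they help the U2 snRNP settle on the branch point. UAP56 acts in that step as an ATP-driven helicase, and it also loads export adaptors on the finished mRNA. In Arabidopsis, U2AF, U1-70K and UAP56 transcripts are themselves known to be spliced in several ways, and mutants of the small U2AF subunit flower at an altered time.

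The libraries held between 8695843 and 12689543 reads counted in genes. The share of ribosomal RNA rows was highest in dark library C (4.77%) and light library A (4.40%), and 0.799% to 1.75% in the other libraries. All 9 members passed the filter on low counts, as did 20151 genes in all. Of the genes tested, 56.3% were called by edgeR's quasi-likelihood test at an adjusted p under 0.05, with 28.9% higher and 27.4% lower in light. In 62.4% of genes the 3 dark and 3 light levels did not overlap. In whole seedlings, fewer cells of a type and less RNA per cell cannot be told apart. Of 6 root markers, none of them at 0, the summed level was 211 to 224 CPM (counts scaled to a common library size) in dark and 187 to 201 in light. The sum of 5 leaf and stomatal markers, also none at 0, was 193 to 194 CPM in dark and 184 to 195 in light. PHO1 made up most of the root sum, at 148 CPM in dark and 111 CPM in light, while SCR, the next highest, went from 44.0 to 56.9 CPM. Of the root markers 3 were called higher and 2 lower, and of the leaf and stomatal markers 1 higher and 3 lower. The part of tissue make-up in the member levels was not tested.

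By gene level, 4 of the 9 members were called lower in light, 2 were called higher and 3 were not called, and in 7 of the 9 the groups did not overlap. Since the members were picked on this contrast, nothing is read from these counts against the shares above. With library totals as the scaling, which moved the median of all genes from -0.0031 to -0.145 on the log2 scale, U2AF65B and U1-70K were also called lower, so that 6 members were lower and 2 higher. Levels below are RPKM, the CPM divided by the summed length of the gene's annotated exon parts in kilobases. Library sizes were scaled by TMM factors. Comparison between genes depends on these lengths, which include alternatively spliced parts. The 2495 bases of U1-70K include a 909-base intron that is retained in only part of its transcripts. The 1693 bases of U2AF35B include a 477-base part, E001, with few reads.

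The small U2AF subunits stood farthest from the dark level. U2AF35B (AT5G42820), which with its paralog U2AF35A encodes the subunit that reads the AG at the end of the intron, lies at chr5:17169283-17171704 (TAIR10). Its level was 57.2, 59.4 and 56.9 RPKM in the dark libraries and 28.9, 27.8 and 26.6 RPKM in the light libraries. The groups were far apart and varied little within themselves, at 57.8 ± 1.39 and 27.8 ± 1.12 RPKM (SD, n = 3 each). The log2 change was -1.06 ± 0.06 (SE), a 2.08-fold higher level in dark. U2AF35A (AT1G27650), at chr1:9614551-9616357, had levels of 67.0, 73.2 and 68.3 RPKM in dark and 35.8, 37.0 and 34.9 RPKM in light. All light libraries were again well below all dark ones, with means of 69.5 ± 3.26 and 35.9 ± 1.08 RPKM. The log2 change of U2AF35A was -0.95 ± 0.06, a 1.93-fold higher level in dark. Both genes overlap a neighbour, and whether counting used the strand is not given in the sources used here. The exon parts of U2AF35A that touch AT1G27640 held reads equal to 9.79% of the counts of U2AF35A in dark, and AT1G27640 itself was lower in light by a log2 change of -1.09 ± 0.18. Counted outside the neighbours, which was chosen after seeing the data, the log2 change was -0.97 for U2AF35A and -1.09 for U2AF35B. The exon part of U2AF35B that touches ATIPK1 held reads equal to 2.53% of its counts in dark.

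The large subunits were closer to the dark level. U2AF65A (AT4G36690), at chr4:17293947-17297761, encodes the protein that binds the polypyrimidine tract, and its level was 69.8, 68.2 and 60.7 RPKM in dark and 50.9, 48.7 and 53.4 RPKM in light. The lowest dark library lay above the highest light library, and the log2 change was -0.38 ± 0.07, from 66.2 ± 4.89 to 51.0 ± 2.33 RPKM. Its paralog U2AF65B (AT1G60900), at chr1:22423909-22428022, had 38.5, 36.8 and 35.2 RPKM in dark and 33.0, 33.3 and 37.8 RPKM in light. Its groups overlapped, with light library C inside the dark range, and the log2 change of U2AF65B was -0.09 with a 95% interval from -0.28 to 0.10.

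The proportions of the subunits differed between the groups. Per length, the level of U2AF35A and U2AF35B together relative to U2AF65A and U2AF65B together was 1.15, 1.26 and 1.31 in dark and 0.771, 0.791 and 0.675 in light. Every dark library had more small-subunit than large-subunit transcript per length, and every light library had less. The ratio of U2AF65A to U2AF65B was 1.80 on average in dark and 1.47 in light, with no overlap. The ratio of U2AF35A to U2AF35B was 1.20 ± 0.03 in dark and 1.29 ± 0.05 in light, a small shift in which the light libraries also lay above the dark ones. These ratios are built from the levels above and are not independent of them. The size of each ratio depends on the annotated lengths.

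**Figure D1:**
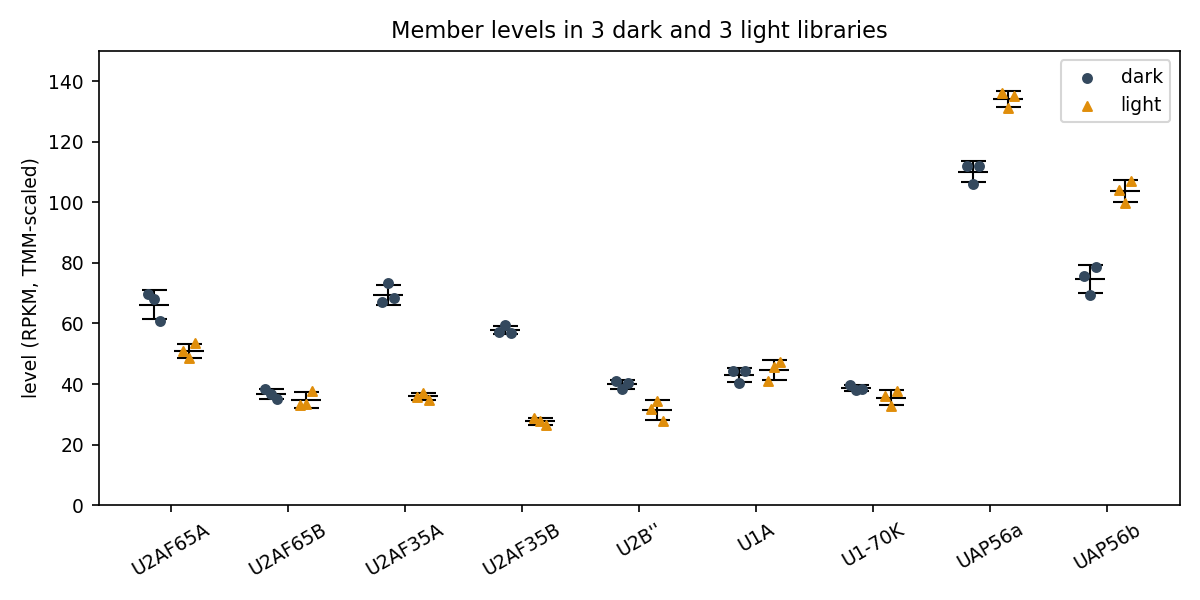
Level of each member in RPKM with TMM-scaled library sizes, with 1 point per library and bars for the mean ± SD of 3 libraries. The light libraries of U2AF35A and U2AF35B lie between 26.6 and 37.0 RPKM, below their dark libraries at 56.9 to 73.2 RPKM, and those of UAP56a and UAP56b lie above all their dark libraries.

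Among the snRNP proteins, only U2B'' was called. U2B'' (AT2G30260), at chr2:12905402-12907509, encodes the protein that binds a loop of the U2 snRNA together with U2A', and its level was 41.1, 38.3 and 40.3 RPKM in dark and 31.9, 34.4 and 27.9 RPKM in light. All light libraries were below the dark ones, and the log2 change was -0.34 ± 0.08. U2A', its partner gene and not a member, was called higher at 48.9 ± 2.15 CPM in dark and 58.4 ± 2.01 CPM in light, a log2 change of 0.26 ± 0.06.

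U1-70K (AT3G50670), at chr3:18826300-18829618, encodes the protein that contacts SR proteins at the start of the intron, and its level was 39.8, 38.0 and 38.4 RPKM in dark and 36.0, 32.8 and 37.6 RPKM in light. The light libraries lay just below the dark ones, and the log2 change of -0.13, with a 95% interval from -0.31 to 0.04, was not called. U1A (AT2G47580), at chr2:19517187-19518871, encodes the protein that binds the U1 snRNA directly, and its level was 44.4, 40.4 and 44.4 RPKM in dark and 41.0, 45.5 and 47.3 RPKM in light. The groups of U1A overlapped, and its log2 change of 0.05 ± 0.07 became -0.09 with library totals as the scaling. A stretch of 175 bases of U1A overlaps AT2G47570, whose level was 0 CPM in dark and 0.0279 CPM in light.

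The UAP56 genes were higher in light. UAP56a (AT5G11170), at chr5:3553117-3556977, had 112, 106 and 112 RPKM in dark and 136, 131 and 135 RPKM in light. UAP56b (AT5G11200), a close copy at chr5:3567174-3571015, had 75.8, 69.4 and 78.5 RPKM in dark and 104, 99.9 and 107 RPKM in light. In both genes every light library was above every dark one. The log2 change was 0.28 ± 0.05 for UAP56a, a 1.22-fold higher level in light, and 0.47 ± 0.06 for UAP56b, a 1.39-fold higher level. The ratio of UAP56a to UAP56b was 1.48 ± 0.05 in dark and 1.29 ± 0.03 in light, with no overlap. The 2 genes are near-identical copies, so how reads were divided between them is uncertain. Summed, they had a log2 change of 0.37. With library totals as the scaling, UAP56a was at 0.14 and only narrowly called.

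Ordered by level per annotated length in dark, UAP56a was the highest, at 110 ± 3.70 RPKM. The order depends partly on these lengths. UAP56b, U2AF35A and U2AF65A followed with overlapping neighbours, then U2AF35B apart from its neighbours, and last U1A, U2B'', U1-70K and U2AF65B, again with overlapping neighbours. In light, UAP56a, UAP56b, U2AF65A and U1A stood in that order. Below them came U2AF35A, U1-70K, U2AF65B, U2B'' and U2AF35B, each overlapping the next. U2AF35B was thus 5th of the 9 in dark and last in light, not separated there from its neighbour U2B''. Both places rest on an annotated length that includes E001, a long part with few reads, and would be higher without that part.

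The other genes of the early spliceosome were counted from lists of known function. Of 44 other U1 and U2 snRNP partners, 43 were tested, 13 were called higher and 9 lower, and their median log2 change was 0.05 beside -0.0031 for all genes tested. With library totals as the scaling, 7 were higher and 12 lower, with a median of -0.09, beside 4184 higher and 7397 lower of all genes against 5826 and 5527 in the main scaling. The genes called lower with the largest changes were AT1G07170 (22.9 to 9.86 CPM, log2 change -1.20 ± 0.12), AT1G14640 (-0.78 ± 0.17), RCF1 (-0.68 ± 0.06) and AtSF1. RCF1, AT1G20920, is a DEAD-box helicase known from cold responses. AtSF1, AT5G51300, is the homolog of the branch point protein that binds next to the large U2AF subunit. AtSF1 fell from 77.1 ± 0.918 to 52.3 ± 2.15 CPM, a log2 change of -0.56 ± 0.06, with all light libraries below the dark ones. Those called higher with the largest changes were emb2444 (AT2G18510, 23.9 to 42.8 CPM, log2 change 0.84 ± 0.07), the Sm protein gene SMB (AT4G20440, 0.54 ± 0.07), RUXF (AT4G30220, 0.47 ± 0.09) and AT3G07590 (0.41 ± 0.11).

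Of 13 mRNA export partners of UAP56, 3 were called higher and none lower, and the median log2 change was 0.09. The 3 were the THO complex genes THO1 (AT5G09860, 28.3 to 38.0 CPM, log2 change 0.43 ± 0.07) and TEX1 (AT5G56130, 0.36 ± 0.09), and AT1G66260 (0.30 ± 0.06). With library totals as the scaling, 2 were higher, 3 lower and the median was -0.05. Of 16 tri-snRNP genes, which join after the U1 and U2 steps, 6 were called higher and 2 lower, with a median of 0.16, or 4 and 4 with a median of 0.01 with library totals as the scaling. The highest were AT5G20160 (51.7 to 93.5 CPM, log2 change 0.85 ± 0.08), AT4G22380 (0.79 ± 0.11), the GTPase gene MEE5 (0.48 ± 0.06) and SAD1 (AT5G48870, 0.46 ± 0.08), which encodes LSM5 of the ring on U6 snRNA. DOT2 (AT5G16780, log2 change -0.46 ± 0.06) and LACHESIS (AT2G41500, -0.52 ± 0.08) were the ones called lower. The 3 lists lie around 0, and their medians changed by 0.1 or more with the scaling.

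**Figure D2:**
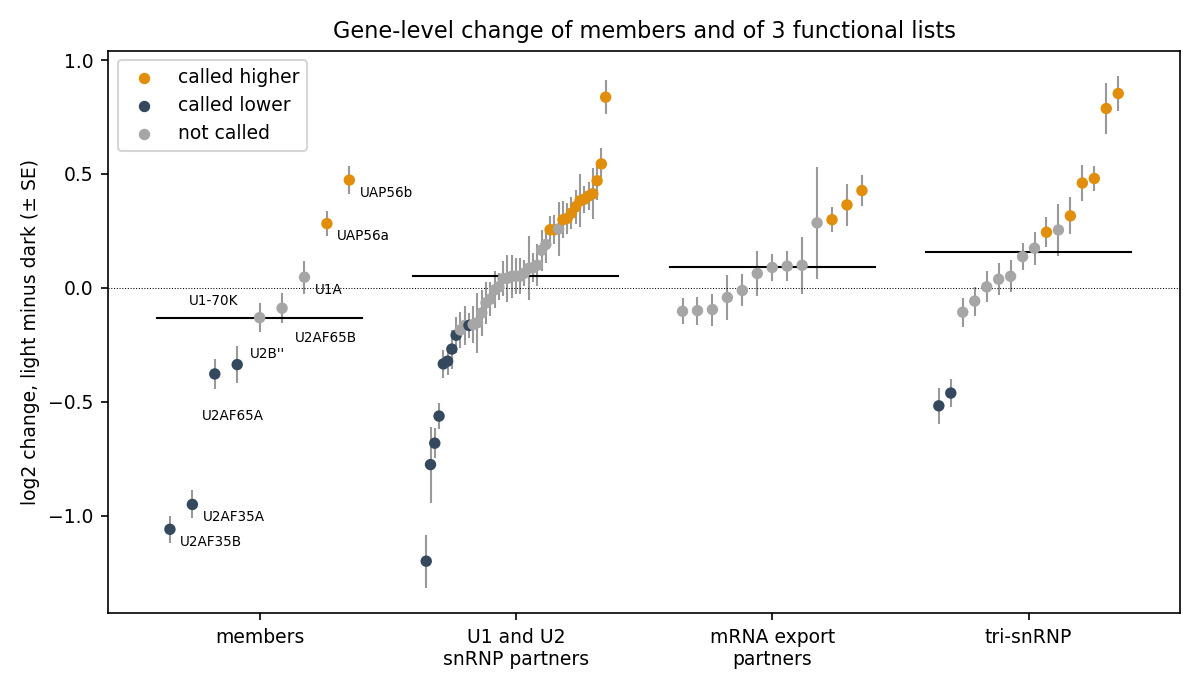
Log2 change in gene level, light minus dark, with its SE, for the 9 members and for 3 lists of genes that work with them, in order of size. Horizontal bars mark the median of each list, and U2AF35A and U2AF35B lie near -1 while the medians of the 3 partner lists lie between 0.05 and 0.16.

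Likeness was measured as the root mean square difference, over the 6 libraries, of log2 CPM centred on each gene. Among 72 partner genes, the one most like U2AF35B was AT1G07170 (0.17) and the one most like U2AF35A was AT1G20920 (0.16). Over 13118 tested genes of at least 10 CPM, the nearest to U2AF35B were AT5G23590 (0.024), SDP1 (AT5G04040, 0.026) and AT1G61100 (0.032), against 0.065 for its paralog U2AF35A. The log2 changes of these nearest genes were -1.08, -1.03 and -1.04, beside -1.06 for U2AF35B. Among so many genes some near match is bound to be found, and shared regulation was not tested. The members nearest to a partner gene were UAP56a with AT4G02840 (0.022) and UAP56b with MEE5 (0.034). For the others the nearest were AT2G30000 for U1-70K (0.042), AT1G60200 for U2AF65A (0.049), DWA1 for U1A (0.050), AT1G06960 for U2AF65B (0.054) and emb1220 for U2B'' (0.13).

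Inside the genes, usage means the counts of a feature relative to the counts of its gene in the same library. Counts of the exon parts of a gene can add up to more than its gene count, so these percentages are ratios and not parts of a whole. Of 66 intron rows in the 9 members, 11 passed the filter and 3 were called, all lower in light. Of these 3, 1 passed the filter through the dark libraries alone, so its direction is partly set by the filter. Over all introns tested, 6.05% were called and 2.16% were called lower. Of the 11, 8 reached the minimum of the filter in every library of both groups, and in 6 of these 8 the groups did not overlap. Over all introns tested, without that restriction, 26.8% had groups that did not overlap. The 6 include several pieces of the same UAP56b intron, so they are not 6 separate introns and the shares are not alike. The other 3 were U2B'' intron 1, which reached it in the dark libraries alone, and U2AF65A intron 10 and a UAP56b piece, which reached it in neither whole group. The 3 introns called belong to UAP56a and U2B''. Introns are named by their number in coordinate order along the chromosome.

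UAP56a intron 6, 684 bases at chr5:3554940-3555623, held 363, 311 and 360 reads in dark and 195, 202 and 148 in light, although the gene itself was higher in light. Relative to the counts of UAP56a, these were 14.1% ± 0.229 in dark and 7.45% ± 0.186 in light. Read density in the intron was 36.5% ± 0.593 of that of the gene in dark and 19.3% ± 0.48 in light, with dark and light libraries each close together. The log2 usage change was -0.92 ± 0.09, and the intron was called lower in all 11 alternatives, within -0.95 to -0.90. A splice junction that is not in the annotation, from 3555538 to 3555624, removes only the end of this intron next to its upper edge. That junction took 17.7%, 10.7% and 11.8% of the junction reads at the shared upper edge in dark, and 5.30%, 6.41% and 4.07% in light, with no overlap. The annotated junction of UAP56a that removes the whole of intron 6 had 102, 100 and 105 reads in dark and 125, 146 and 118 in light.

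UAP56a intron 3, 457 bases at chr5:3553780-3554236, held 73, 68 and 86 reads in dark and 52, 44 and 32 in light. Its upper end, from 3554183, is also annotated as exon part E004, which held 47, 43 and 59 reads in dark and 37, 31 and 21 in light. The intron and E004 overlap, so their values are not separate observations. Its log2 usage change was -0.83 ± 0.17, and it was called lower. The call was lost with DESeq2, without dark library A, B or C, without light library B or C, and without the pair richest in ribosomal RNA, where the log2 usage change lay between -0.90 and -0.76. An unannotated junction from 3553779 to 3554101 ends 136 bases inside this intron, and the bases it leaves in include E004. This junction had 29, 30 and 30 reads in dark and 14, 13 and 11 in light. Its share of the reads at the shared lower edge was 23.8%, 22.9% and 24.0% in dark and 9.40%, 8.97% and 9.65% in light, so the 2 groups differed by more than their spread. The annotated junction that removes the whole of intron 3 had 93, 101 and 95 reads in dark and 135, 132 and 103 in light, a log2 usage change of 0.36 ± 0.11. The inner junction was the only one of 68 tested in the members that was called, with a log2 usage change of -1.23 ± 0.25, where 0.169% of all junctions tested were called. The call was lost with DESeq2, without dark library B or C, without light library A or B, and without the pair richest in ribosomal RNA, within -1.30 to -1.14. Of the 68 junctions, 13 had groups that did not overlap, where 11.2% of all junctions tested did not.

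UAP56b has an unannotated junction at the matching place, from 3567819 to 3568142, whose upper edge also lies 136 bases inside the main one. This junction had 16, 11 and 13 reads in dark and 15, 10 and 5 in light. All junction reads at its lower edge were 85, 82 and 108 in dark and 134, 118 and 99 in light. Its share there was 18.8%, 13.4% and 12.0% in dark and 11.2%, 8.47% and 5.05% in light. The share was lower in every light library but with a wider spread than in UAP56a. Relative to the gene, the groups overlapped in all 12 tested junctions of UAP56b. How reads were divided between the near-identical copies is uncertain here too. Intron 3 of UAP56b, 458 bases long, held 40, 17 and 32 reads in dark and 26, 22 and 17 in light, and its groups overlapped. The other tested intron pieces of UAP56b lie between 3568984 and 3569669, where annotated alternatively spliced parts divide the intron. Their read density relative to the gene was 24.5% in dark and 14.7% in light for the piece at 3568984-3569152, and 28.5% and 18.4% for the piece at 3569196-3569314. For the pieces at 3569351-3569434 and 3569574-3569669 it was 13.2% and 5.80%, and 29.8% and 18.5%. None of the 4 was called, at log2 usage changes of -1.14 to -0.64, and in all 4 the light libraries lay below the dark ones.

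In U2B'', intron 1, 127 bases at chr2:12905827-12905953, held 25, 25 and 22 reads in dark and 5, 3 and 2 in light. Relative to the counts of U2B'', these were 5.20% ± 0.70 in dark and 1.10% ± 0.431 in light. The intron passed the filter through the dark libraries alone, since no light library reached its minimum, and its direction is partly set by the filter. With counts this low the size is uncertain. The log2 usage change was -2.24 ± 0.36, and the call held in all 11 alternatives, within -2.72 to -1.97. All of these except the run with no filter selected the intron in the same way, so they are not separate support. The next intron, at chr2:12906043-12906155, held 11, 10 and 5 reads in dark and 0, 2 and 0 in light, too few to pass the filter.

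Of the introns that hold most reads in the other members, none was called. U2AF65B intron 4, 630 bases at chr1:22425297-22425926, held 130, 121 and 133 reads in dark and 93, 96 and 76 in light. Its density was 44.2% ± 2.06 of that of the gene in dark and 39.6% ± 2.23 in light, with the light libraries below the dark ones and a log2 usage change of -0.16 ± 0.13, not called. The long intron of U1-70K, 909 bases at chr3:18827440-18828348, is known to be retained in part of its transcripts. It held 291, 240 and 286 reads in dark and 217, 205 and 182 in light, which was 22.5% ± 0.955 and 22.4% ± 1.21 of the counts of U1-70K. Its log2 usage change was -0.01 ± 0.08, so its usage was nearly the same in both groups. U2AF35B intron 1, at chr5:17169760-17170409, held 121, 106 and 102 reads in dark and 57, 59 and 36 in light. An annotated exon part of 198 bases inside it has the same counts in each library. Relative to the gene, the log2 usage change of this intron was 0.21 ± 0.15, and it was not called. The tested intron of U2AF65A had 14, 11 and 6 reads in dark and 8, 15 and 10 in light, and its groups overlapped. Of the 8 members with more than 1 intron, 5 had the most reads per length in their longest intron, with the pieces of the divided UAP56b intron taken separately. The 5 include U2AF35B, whose intron 1 has the counts of the annotated exon part inside it.

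**Figure D3:**
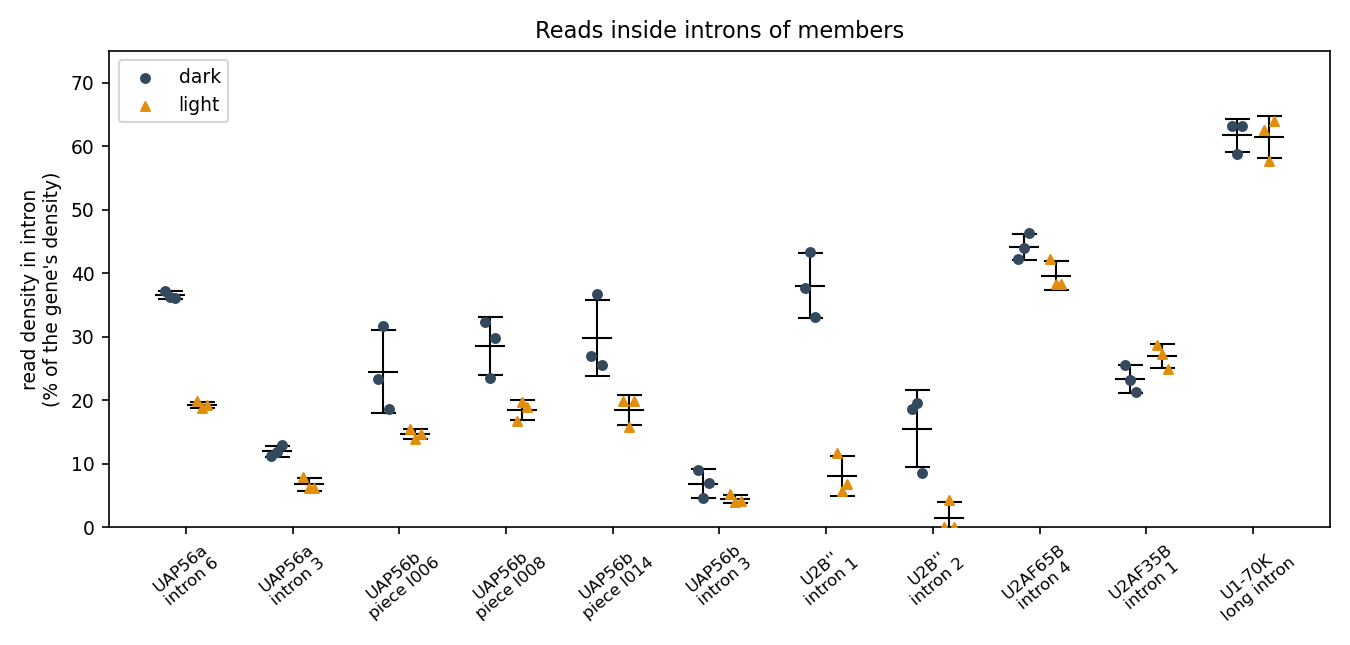
Read density in named introns as a percentage of the read density of the gene, 1 point per library, with bars for the mean ± SD of 3 libraries. Dark and light points are apart in UAP56a introns 6 and 3 and in U2B'' intron 1, and they overlap in the long intron of U1-70K.

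Of 12 alternatively spliced parts in the members, 10 passed the filter and none was called, where 1.19% of all parts tested were called. In 4 of the 10 the groups did not overlap, all with light below dark, where 14.8% of all parts did not overlap. U2AF65A part E006, 173 bases at chr4:17294431-17294603, held 208, 181 and 155 reads in dark and 94, 92 and 86 in light. This was 9.34% ± 0.824 of the counts of U2AF65A in dark and 7.49% ± 0.745 in light, a log2 usage change of -0.33 ± 0.11. E006 begins at the base after exon part E005, so it is left out by use of another splice site and not as a separate exon. The junction that leaves out E006, from 17294430 to 17294704, had 18, 22 and 20 reads in dark and 22, 32 and 20 in light. The junction out of E006, with the same upper edge, had 56, 43 and 35 reads in dark and 16, 21 and 20 in light. The junction without E006 was 24.3%, 33.8% and 36.4% of the reads at their shared edge in dark and 57.9%, 60.4% and 50.0% in light. It thus made up the smaller share in every dark library and at least an equal share in every light library. Relative to the gene, the junction without E006 had a log2 usage change of 0.97 ± 0.24, which was not called in the main test and was called with no filter on low counts.

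Of the other parts of U2AF65A that passed the filter, none was called. E007, the 100 bases after E006, had a log2 usage change of 0.38 ± 0.20, and its groups overlapped. E017 and E018, at alternative splice sites, had -0.07 ± 0.13 and -0.17 ± 0.13. In U2AF35A, parts E002 and E003 mark the alternative ends of its intron. E002 held 94, 126 and 128 reads in dark and 37, 60 and 39 in light, a log2 usage change of -0.13 ± 0.16 that became 0.02 without light library A. E003 held 107, 117 and 123 reads in dark and 32, 53 and 36 in light, a log2 usage change of -0.29 ± 0.15 with light below dark. E002 lies in the stretch shared with AT1G27640. In UAP56b, the skipped exon parts E008 and E009 and part E012, whose class the table gives as multiple, had log2 usage changes of -0.45 ± 0.23, -0.58 ± 0.34 and -0.59 ± 0.26, each resting on fewer than 30 reads in every library.

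Of the junctions that share an edge with another in the members, 8 had at least 30 reads at the site in each library and a minor share of at least 2%, and in 4 of them the groups did not overlap. Over the whole junction table, 17.7% of such junctions had groups that did not overlap. The 4 are those of UAP56a, UAP56b and U2AF65A described above. At the long intron of U1-70K, removal of the whole intron took 47.7%, 50.0% and 50.0% of the reads in dark and 50.0%, 56.8% and 54.5% in light, against an unannotated junction to 18827553. The groups of U1-70K shared the value of 50.0%. The 3 others, all in U2AF65A, had mean shares of at most 2.95% in either group and overlapped.

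**Figure D4:**
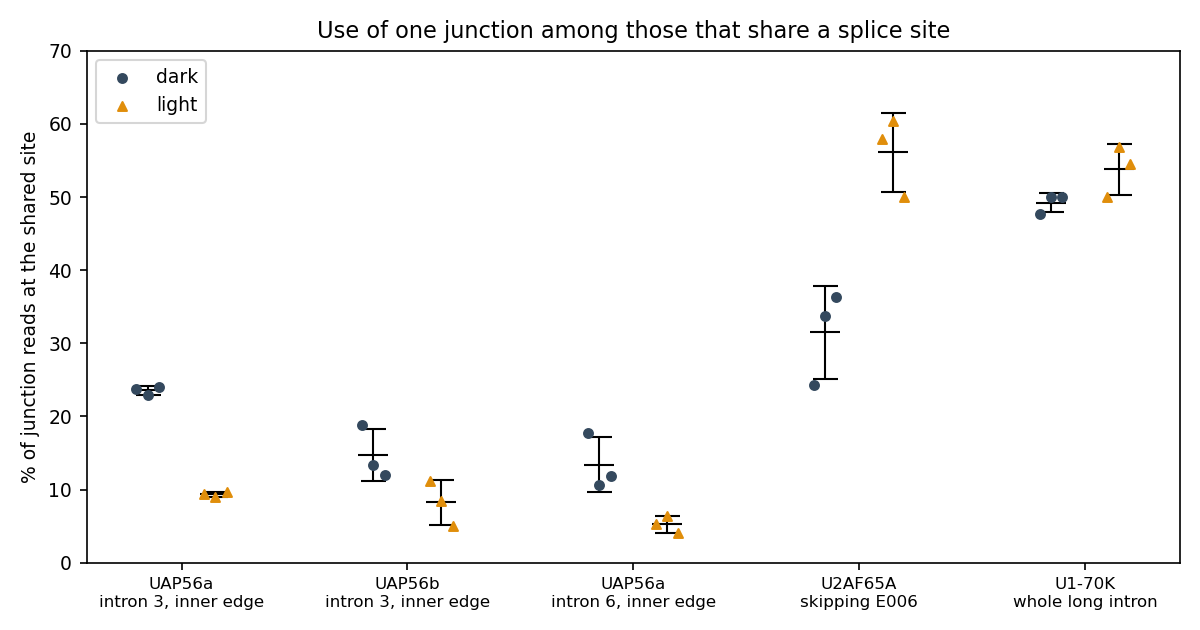
Share of junction reads at a shared splice site taken by 1 junction, in percent, 1 point per library, with bars for the mean ± SD of 3 libraries. Dark lies above light at the inner edges in UAP56a and UAP56b, and the groups meet at the long intron of U1-70K. Light lies above dark for the junction that leaves out E006 in U2AF65A, marked there as skipping.

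Of 84 exon rows in the members, 75 passed the filter and none was called, where 0.0988% of all exons tested were called. In 13 the groups did not overlap, 6 with light above and 7 with light below, where 11.5% of all exons tested did not overlap. Named here are the 2 exons in each direction with the largest usage changes among those without overlap and with a mean of at least 20 reads in the higher group. In UAP56a, exon part E004, 54 bases that form the end of intron 3, held 47, 43 and 59 reads in dark and 37, 31 and 21 in light. Its log2 usage change was -0.74 ± 0.17, which is not separate from that of the intron. In U1-70K, E009 at chr3:18828824-18828903 held 135, 117 and 116 reads in dark and 82, 78 and 42 in light, a log2 usage change of -0.44 ± 0.14. The junction next to it, from 18828903 to 18828974, had 70, 62 and 56 reads in dark and 37, 34 and 23 in light, a log2 usage change of -0.58 ± 0.17. In U2AF35B, E001 held 28, 27 and 38 reads in dark and 27, 20 and 19 in light, so that its log2 usage change was 0.84 ± 0.22 while the gene was lower. U2AF65B E009, at chr1:22426545-22426657, had 91, 71 and 78 reads in dark and 68, 76 and 66 in light, a log2 usage change of 0.19 ± 0.10. The U2AF65B junction from 22424918 to 22425229 had 34, 28 and 43 reads in dark and 20, 19 and 19 in light, a log2 usage change of -0.48 ± 0.22. Part of U2AF35B E001 lies in the stretch shared with ATIPK1, whose own level was 22.1 CPM in dark and 22.3 CPM in light.

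**Figure D5:**
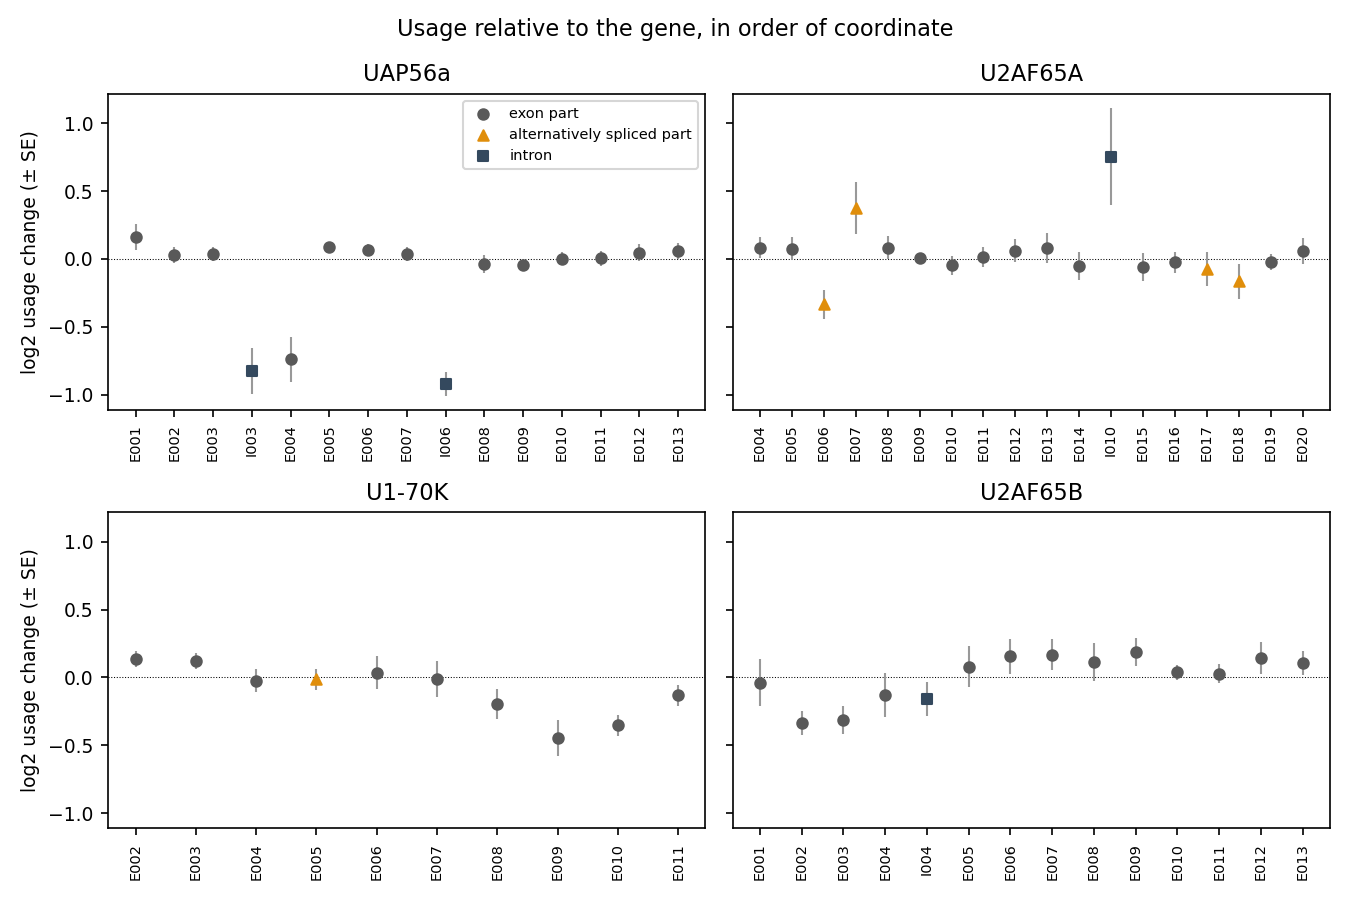
Log2 usage change, light minus dark, relative to the gene with its SE, for the tested exon parts, alternatively spliced parts and introns of 4 members in order of coordinate. In UAP56a introns 3 and 6 and E004, which lies inside intron 3, lie near -0.8 while the other exon parts lie near 0. In U1-70K the retained intron E005 lies at -0.01.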

How the data were processed

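The authors deposited 5 tables of raw read counts, by gene, exon, intron, splice junction and alternatively spliced part. The submitters' processing notes name TopHat2 2.0.9, R 3.1 and the TAIR10 build. The sources used here name neither the counting program nor its use of strand. Per the labels' protocols, TruSeq libraries were made from 3 µg of total RNA with 12 cycles of PCR. Counts were tested with the quasi-likelihood F test of edgeR 4.0.16 in R 4.3.3, with TMM scaling, filterByExpr and Benjamini-Hochberg adjustment over each whole table, and a call is an adjusted p under 0.05. Usage was tested with the log of the gene count plus 0.5 as offset. SE is the log2 change divided by the square root of F. The 95% intervals take their degrees of freedom from the 6 libraries alone, fewer than the F test uses. They are therefore wider than that test implies. Levels in CPM and RPKM were computed from the counts. The edgeR fits were tested on simulated counts with known changes. Alternatives included DESeq2 1.42.0, other scalings, no filter and each library left out.

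The members, the lists and the tests were chosen with earlier results of these data known. Named were all members, every alternatively spliced part that passed the filter, every called exon, intron or junction, up to 2 others per table and direction with groups that did not overlap and a mean of at least 20 counts, and up to 4 called genes per list and direction. Some UAP56b and UAP56a introns and junctions, the second U2B'' intron and the densest introns of other members were added after their values were seen. Columns carry letters where the labels carry replicate numbers, so each column was mapped to its group only. Deviations from the group mean correlated at -0.067, 0.12 and -0.04 between libraries of the same letter, so the letters were not treated as pairs. Whether replicate libraries are separate cultures is not in the labels, so p-values cover only how much these samples vary, perhaps for technical reasons alone.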

Additional observations from a re-analysis of the deposited data

How the results depend on the processing

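At gene level, 11353 genes were called, and all alternatives gave 9716 to 11595. The most came with a replicate block by column letter (11595), although it is not known whether the letters pair the libraries. The 4 members called lower and the 2 called higher kept their calls in every alternative run, on the log2 scale with UAP56b at 0.33 to 0.50, U2AF35B at -1.20 to -1.03 and UAP56a at 0.14 to 0.37. The lowest UAP56a value came with library totals, where it passed the threshold only narrowly. With library totals, U1A was at -0.094, U2AF65B at -0.232 and U1-70K at -0.274.

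Counts over the whole tables depended more on the settings. Alternatively spliced parts called went from 40 to 11 with DESeq2, 78 with no filter, 16 without the 2 libraries richest in ribosomal RNA, and 21 to 36 with 1 library left out (21 without dark B, 21 without dark C, 23 without light B). Exons went from 101 to 23 without those 2 libraries and 51 to 80 with 1 left out (51 without dark B, 59 without dark C, 57 without light A, 55 without light B). Introns went from 202 to 51 with DESeq2, 35 without those 2 libraries and 86 to 122 with 1 left out (88, 86 and 118 without dark A, B and C, 93, 112 and 122 without light A, B and C). Junctions went from 111 to 45 with DESeq2 and 527 with no filter. With the replicate block these counts were 32, 75, 167 and 106. The causes were not tested.

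Usage changes close to 0 switched sign. U2AF35A E002 went to 0.016 without light A and 0.078 without the libraries richest in ribosomal RNA, within -0.246 to 0.078. U1-70K E005 went to 0.00447 without dark A, 0.0029 without dark C and 0.0322 without light B, within -0.0465 to 0.0322. U2AF65A E017 went to 0.0429 without light C, within -0.173 to 0.0429. Of the 66 introns of the members, 55 did not pass the filter on low counts, and 19 had no read in any library. With a minimum of 10 reads at a site, 14 junctions in place of 8 could be described.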
